A study of Mus musculus with 18 samples.

Results

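Rab GTPases are the largest branch of the Ras superfamily. Each Rab protein sits on particular membranes and, when bound to GTP, recruits effectors that move, tether or fuse vesicles. Guanine nucleotide exchange factors (GEFs) switch a Rab on, GTPase-activating proteins (GAPs) switch it off, and the GDP dissociation inhibitors (GDIs) take the inactive form off the membrane. In macrophages, Rab proteins order the maturation of phagosomes, the delivery of Toll-like receptors and the secretion of cytokines and granules. The members described here are the mRNAs whose symbol is Rab followed by a number and at most 1 letter, which left out Rab-like genes, effectors and regulators. There were 57 such genes among the 16909 symbols of the table. Of these, 50 were among the 12465 genes that passed the filter on low counts. The other 7 (Rab17, Rab25, Rab39b, Rab3b, Rab40b, Rab42 and Rab4a) had at most 15 counts in any library and were not tested.

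The mRNA of macrophages from mouse bone marrow was sequenced in 18 libraries. The UVABs and STSABs groups (n = 5 each) received apoptotic bodies, which are fragments wrapped in membrane that come off cells as they die, from cells the labels call hucMSC, with UV or STS as the inducer, and are labelled as anti-inflammatory treatments. The LPS group (n = 5) received lipopolysaccharide, a bacterial ligand of Toll-like receptor 4, as the positive control for inflammation, and the Con group (n = 3) was a mock group. Not given in the sources used here were strain, sex and age, doses and times, and whether the groups with apoptotic bodies (ABs) also received LPS. Nor is it given whether libraries of a group came from separate cultures or animals, so the p-values cover the spread among the libraries sequenced, and that spread could be technical.

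Library totals of estimated counts ran from 17588357 to 18675283. Levels are CPM, counts scaled to a common library size with TMM scaling, whose mean factors were 0.928 in UVABs, 0.932 in STSABs, 0.902 in LPS and 1.51 in Con. Because Con stood apart in this factor, the direction of moderate changes against Con depended on the scaling. The libraries numbered 2 of UVABs and STSABs stood apart from the other 4 libraries of their groups. Their counts differed from those of the other libraries with a chi-square per degree of freedom of 23.5 to 33.4 in UVABs and 19.8 to 30.9 in STSABs, while all other pairs within a group had 2.3 to 14.7. Summed over 11 macrophage markers, levels were 11553 to 13264 CPM in UVABs, 11009 to 11939 CPM in STSABs, 13315 to 14771 CPM in LPS and 12093 to 12856 CPM in Con, and none was at 0 in any group. The 10 stromal and mesenchymal markers summed to at most 36.2 CPM in any library. The 8 neutrophil markers summed to 3181 to 4204 CPM in UVABs, 3251 to 4711 CPM in STSABs, 1812 to 2524 CPM in LPS and 1185 to 1481 CPM in Con, with none at 0. The 6 dendritic cell markers summed to 2736 to 3393 CPM in UVABs, 2775 to 3362 CPM in STSABs, 2447 to 2740 CPM in LPS and 171 to 192 CPM in Con. These sums hide markers that moved in opposite directions. In LPS against Con, 2 of the 4 tested dendritic cell markers were higher and 1 lower. Of the 11 macrophage markers, 4 were higher and 5 lower. The 5 endothelial and platelet markers summed to 269 to 487 CPM in UVABs, 263 to 374 CPM in STSABs, 227 to 262 CPM in LPS and 156 to 168 CPM in Con. T and NK, B and erythroid cell markers summed to at most 14.7 CPM in any library. In bulk RNA, fewer cells of a type and less RNA per cell cannot be told apart.

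Against Con, the LPS group had higher mRNA of Rab30, Rab20, Rab8b, Rab29, Rab12 and Rab32, by 17.3-fold to 3.62-fold, and lower mRNA of Rab37, Rab7b, Rab44, Rab31, Rab24 and Rab27a, by 6.81-fold to 1.65-fold. These were the 6 largest changes in each direction among members whose mean reached 5 CPM in either group. Of the 50 members tested, 28 were higher and 16 lower in LPS at an adjusted p under 0.05, while 40% of all genes tested were higher and 43% lower. The median log2 fold change was 0.41 over the members and -0.03 over all genes. At least 2-fold changes were called in 14 members upwards and 11 downwards, against 18.7% and 21% of all genes. Upper-quartile scaling gave 24 members higher and 20 lower, with 36% of all calls upwards in place of 48.2%, and library totals alone gave 15 higher and 29 lower, with 21.2% of all calls upwards. These scalings moved the median of all genes to -0.31 and -0.78. Under all 4 scalings, 15 members were higher, among them Rab1a, Rab8a, Rab10, Rab21 and Rab22a, 15 were lower, and 8 (Rab2a, Rab4b, Rab5b, Rab6a, Rab7, Rab11b, Rab14 and Rab43) were called in both directions. All adjusted p-values are from edgeR's quasi-likelihood F-test with Benjamini-Hochberg adjustment over all genes tested.

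**Figure D1:**
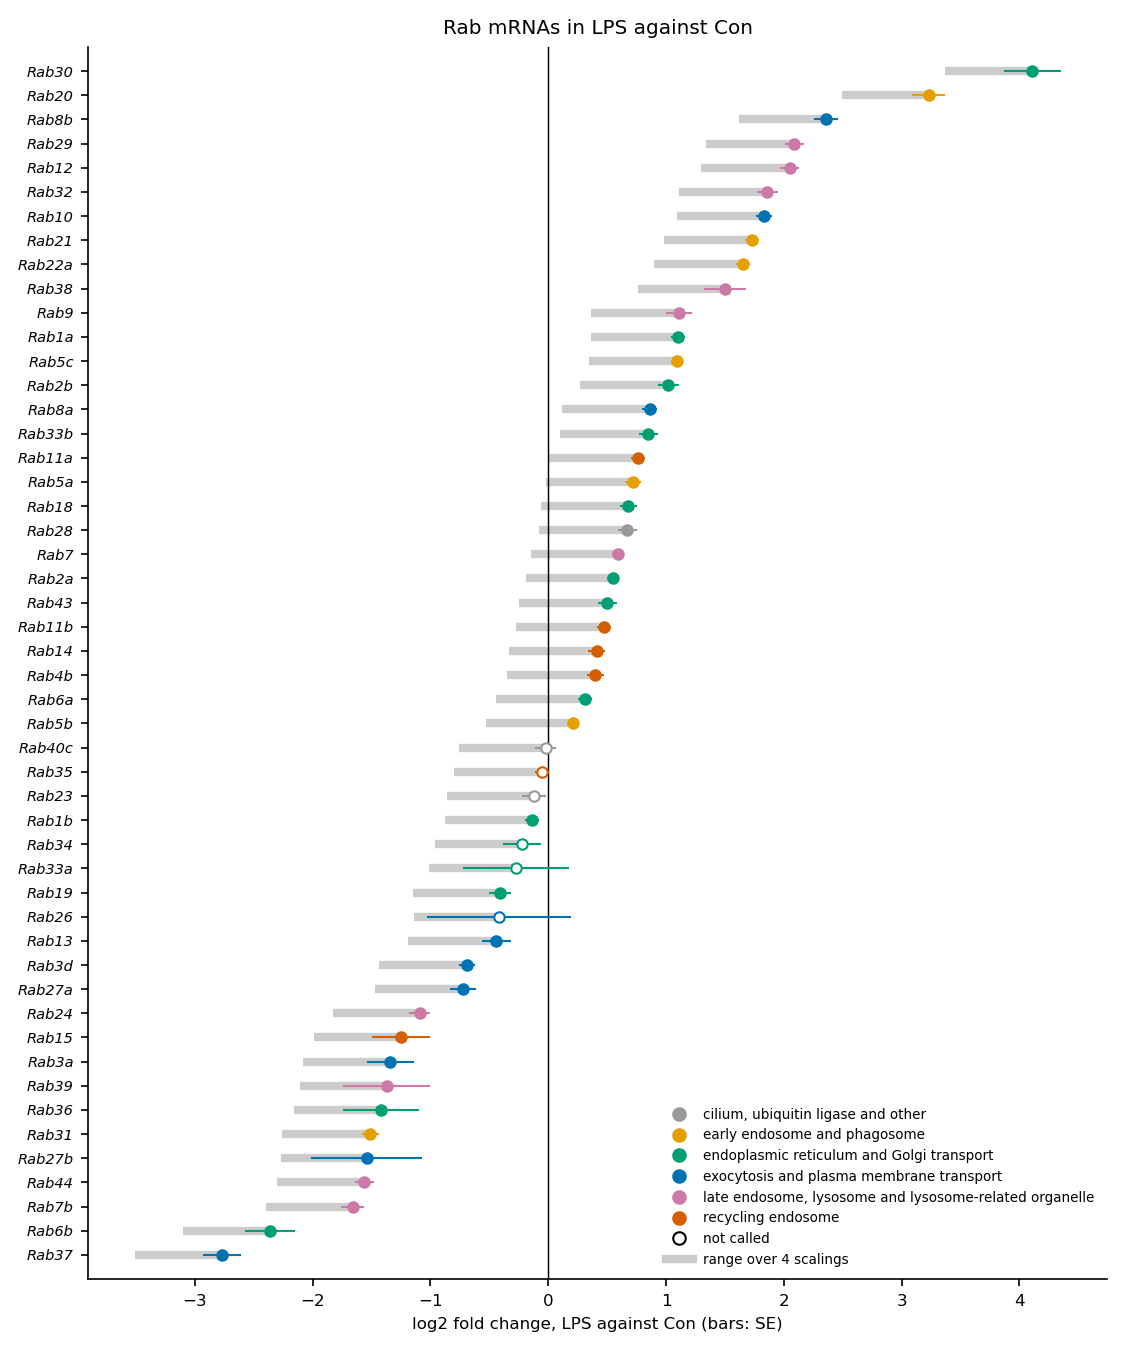
Log2 fold change of each of the 50 tested Rab mRNAs in LPS (n = 5) against Con (n = 3), coloured by role, with SE bars. Open points were not called, and grey bands give the range over 4 scalings. Rab30 and Rab20 stand at the top and Rab37 and Rab6b at the bottom, and the bands of Rab7, Rab14 and Rab5a, among others, cross 0, since library totals alone turned their direction.

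The early endosome and phagosome is entered through Rab5, which directs fusion of incoming vesicles. Of 7 members with this role, 6 were higher in LPS and Rab31 was lower, with Rab5a and Rab5b the exceptions under library totals alone (-0.02 and -0.53). Rab20, a Rab of maturing phagosomes, had 38.7, 43.8, 49.6, 43.8 and 43.0 CPM in LPS libraries and 5.00, 4.15 and 4.81 CPM in Con libraries. The groups did not overlap, and the log2 fold change was 3.23 ± 0.14, adjusted p = 8.3e-16. Rab21, which acts in integrin traffic, and Rab22a, a Rab5 relative of early endosomes, also rose, by 1.73 ± 0.06 and 1.65 ± 0.06 (SE). Rab31, the closest relative of Rab22a, had 20.7, 22.1, 22.7, 19.4 and 20.8 CPM in LPS libraries and 59.5, 61.6 and 59.6 CPM in Con libraries. Each LPS library was below each Con library, with a log2 fold change of -1.51 ± 0.07, adjusted p = 2.17e-15. Of the Rab5 genes, Rab5c averaged 407 ± 15.6 CPM in LPS and 191 ± 7.21 CPM in Con (SD, n = 5 and 3), with a log2 fold change of 1.09 ± 0.05 (SE). Rab5a changed by 0.72 ± 0.07 and Rab5b by 0.21 ± 0.05 under TMM scaling.

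Late endosomes and lysosomes carry Rab7, which drives their fusion, and related Rabs serve lysosome-related organelles. Of 10 tested members, 6 were higher in LPS (Rab7, Rab9, Rab12, Rab29, Rab32 and Rab38), Rab7 only until library totals were used alone (-0.15), and 4 were lower (Rab7b, Rab24, Rab39 and Rab44). Rab39 rests on few counts, with means of 0.182 CPM in LPS and 0.482 CPM in Con. Rab32, which directs cargo to lysosome-related organelles and to pathogen-containing vacuoles, had 230.4, 234, 239, 224 and 226 CPM in LPS libraries and 64.1, 63.4 and 63.7 CPM in Con libraries. Its log2 fold change was 1.86 ± 0.09, adjusted p = 1.22e-14. Rab38, its close relative, was low but moved the same way, at 4.48 ± 0.916 CPM in LPS and 1.58 ± 0.256 CPM in Con (SD), a log2 fold change of 1.5 ± 0.18, adjusted p = 9.32e-08. Rab29, which can recruit the kinase LRRK2 to membranes, and Rab12, which sends transferrin receptor to lysosomes, rose by 2.09 ± 0.08 and 2.05 ± 0.08 (SE). Rab7b, which takes Toll-like receptor 4 to lysosomes, had 6.94, 7.27, 9.07, 8.46 and 7.43 CPM in LPS libraries and 24.0, 25.2 and 24.9 CPM in Con libraries. All LPS libraries lay below all Con libraries, with a log2 fold change of -1.66 ± 0.1, adjusted p = 4.7e-13. Rab44, a large Rab with added domains, had 28.4, 31.6, 30.0, 25.6 and 32.5 CPM in LPS libraries and 86.3, 87.5 and 87.3 CPM in Con libraries, and its log2 fold change was -1.56 ± 0.08, adjusted p = 1.12e-13. Rab24, linked to autophagy, fell by 1.09 ± 0.09 on the log2 scale (SE).

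Rabs of exocytosis and plasma membrane transport split. Of 10 tested, 3 were higher in LPS (Rab8a, Rab8b and Rab10) and 6 lower (Rab3a, Rab3d, Rab13, Rab27a, Rab27b and Rab37), all under each of the 4 scalings. Rab27b and Rab3a rest on few counts, with means of 0.17 and 0.716 CPM in LPS and 0.506 and 1.82 CPM in Con. Rab8b, a Rab of vesicles bound for the plasma membrane, had 1170, 1087, 1007, 1078 and 1124 CPM in LPS libraries and 219, 212 and 208 CPM in Con libraries. Its log2 fold change was 2.36 ± 0.1, adjusted p = 4.88e-16, the largest rise in CPM of any member. Rab10, which promotes delivery of Toll-like receptor 4 to the surface in macrophages, had 375, 370, 358, 356 and 384 CPM in LPS libraries and 104, 101 and 104 CPM in Con libraries, a log2 fold change of 1.83 ± 0.07, adjusted p = 3.92e-17. Rab8a rose by 0.86 ± 0.06 (SE). Of the members that fell, Rab3d, Rab27a and Rab37 are known from regulated secretion. Rab27a, which docks secretory granules and lysosome-related organelles, had 17.8, 14.2, 16.3, 12.2 and 17.2 CPM in LPS libraries and 26.9, 26.7 and 23.4 CPM in Con libraries. Its log2 fold change was -0.72 ± 0.11, adjusted p = 2.77e-06. Rab37, found on secretory vesicles, had 1.80, 1.45, 1.35, 1.26 and 1.10 CPM in LPS libraries and 9.09, 9.35 and 10.2 CPM in Con libraries, a log2 fold change of -2.77 ± 0.16, adjusted p = 3.99e-13. Rab3d, of secretory granules, fell by 0.69 ± 0.07 (SE). Of the neutrophil markers, 6 of 8 were higher and 1 lower in LPS against Con, and their part in these results was not tested.

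In transport between the endoplasmic reticulum and the Golgi, 8 of 14 members were higher in LPS and 4 lower, with Rab2a, Rab6a, Rab18 and Rab43 turned by library totals alone (-0.19, -0.44, -0.06 and -0.25). Rab30, a Golgi Rab that is also found around intracellular bacteria, had 7.30, 5.94, 5.58, 7.74 and 5.16 CPM in LPS libraries and 0.362, 0.433 and 0.289 CPM in Con libraries. This was the largest fold change of any member, 4.11 ± 0.24, adjusted p = 2.94e-13, at a low level. Rab1a, which drives transport into and through the Golgi, had 304, 289, 298, 300.4 and 292 CPM in LPS libraries and 144, 134 and 138 CPM in Con libraries, a log2 fold change of 1.1 ± 0.06, adjusted p = 5.86e-14. Its paralog Rab1b was at -0.14 ± 0.06, adjusted p = 0.0339, a call that was lost with DESeq2 size factors, the DESeq2 test, the replicate block, a term for replicates 1 to 3 against 4 and 5, replicates 1 to 3 only, or without Con replicate 3 (-0.11), LPS replicate 2 (-0.14), LPS replicate 4 (-0.14) or LPS replicate 5 (-0.12). Rab6b, a form of Rab6 known mainly from neurons, fell by 2.36 ± 0.21 (SE), with means of 0.74 CPM in LPS and 3.83 CPM in Con. Of 6 tested Rabs of recycling endosomes, 4 were higher (Rab4b, Rab11a, Rab11b and Rab14) and Rab15 lower, but library totals alone gave 0.01 for Rab11a, -0.35 for Rab4b, -0.27 for Rab11b and -0.33 for Rab14. Under TMM scaling Rab11a, the main Rab of recycling endosomes, changed by 0.76 ± 0.06, adjusted p = 3.13e-11, and Rab14, which acts between Golgi and endosomes, by 0.41 ± 0.07, adjusted p = 5.34e-06. Of the 3 tested members with other roles, Rab28, of the cilium, was higher (0.67, or -0.08 with library totals alone), while Rab23 and Rab40c did not pass the test.

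Promoters are printed for 4 members that rose under every scaling, 2 with the E-box letters CACGTG just before the start and 2 without. The sequences are the 250 bases before the RefSeq start on GRCm38.p6, read on the strand of the gene, and capitals mark matches of ACGTG on either strand.
Rab20, chr8:11478641-11478890, strand -: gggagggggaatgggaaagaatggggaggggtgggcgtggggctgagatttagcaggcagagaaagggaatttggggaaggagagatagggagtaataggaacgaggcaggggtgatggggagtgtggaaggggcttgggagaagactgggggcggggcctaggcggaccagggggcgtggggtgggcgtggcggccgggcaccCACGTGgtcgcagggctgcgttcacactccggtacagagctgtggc
Rab21, chr10:115315592-115315841, strand -: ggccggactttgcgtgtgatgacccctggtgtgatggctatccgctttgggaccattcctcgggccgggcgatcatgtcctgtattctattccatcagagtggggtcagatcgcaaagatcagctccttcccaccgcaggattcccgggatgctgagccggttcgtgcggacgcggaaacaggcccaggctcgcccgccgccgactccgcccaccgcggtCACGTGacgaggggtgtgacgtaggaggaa
Rab32, chr10:10558208-10558457, strand -: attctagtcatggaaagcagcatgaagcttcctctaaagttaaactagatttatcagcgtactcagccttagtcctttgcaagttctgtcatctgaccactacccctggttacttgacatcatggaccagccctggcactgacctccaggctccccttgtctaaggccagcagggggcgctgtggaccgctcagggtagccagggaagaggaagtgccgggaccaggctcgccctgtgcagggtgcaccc
Rab10, chr12:3309970-3310219, strand -: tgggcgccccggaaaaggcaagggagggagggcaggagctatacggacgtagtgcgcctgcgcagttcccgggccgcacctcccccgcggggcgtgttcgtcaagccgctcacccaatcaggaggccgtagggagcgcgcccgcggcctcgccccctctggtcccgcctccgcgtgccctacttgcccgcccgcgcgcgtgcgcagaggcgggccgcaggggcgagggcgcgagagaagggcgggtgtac
The first base of CACGTG lay 46 bases before the start in Rab20 and 30 bases before it in Rab21. Of the 57 members, 46 had a promoter in the RefSeq table, with 58 starts in all. In the window of 250 bases before to 50 after the start, ACGTG, the core of the hypoxia response element, was found in 13 of the 58 (22.4%), against 19.6% of all 32851 promoters. CACGTG, which always contains ACGTG, was in 6 of 58 (10.3%), against 7.15% of all promoters. Of NF-kB-type sites, GGGNTTTCC was in 2 of 58 (3.45%), neither of them printed here, and GGGANTTCC in 0, against 1.68% of all promoters for each. GAAANNGAA, the core of interferon response elements, was in 3 of 58 (5.17%), Rab20 among them, against 8.56% of all promoters. TTCNNNGAA, bound by STAT factors, was in 5 of 58 (8.62%) against 8.3%, and TGANTCA, bound by AP-1, in 3 of 58 (5.17%) against 7.81%. All motifs were searched on both strands, and a match is a description of letters, not a site.

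Within a library, the share that each member takes of all Rab counts does not depend on scaling between libraries. All 57 members together took 0.507 ± 0.0093% of the counts in UVABs, 0.511 ± 0.00877% in STSABs, 0.514 ± 0.0086% in LPS and 0.465 ± 0.00409% in Con (SD, n = 5, 5, 5 and 3). Rab8b took 19.2 ± 0.844% of the Rab counts in LPS and 6.92 ± 0.139% in Con. In UVABs and STSABs it took 16.1 ± 1.61% and 16.2 ± 1.52%, with 13.4% and 13.95% in the libraries numbered 2. Rab7 took 19.8 ± 0.915% in UVABs, 20 ± 1.24% in STSABs, 15.7 ± 0.383% in LPS and 19.3 ± 0.843% in Con. The LPS libraries were thus below all others for Rab7 and above all others for Rab8b. Rab1b and Rab14 had their highest share in Con, at 5.25 ± 0.232% and 5.88 ± 0.16%.

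**Figure D2:**
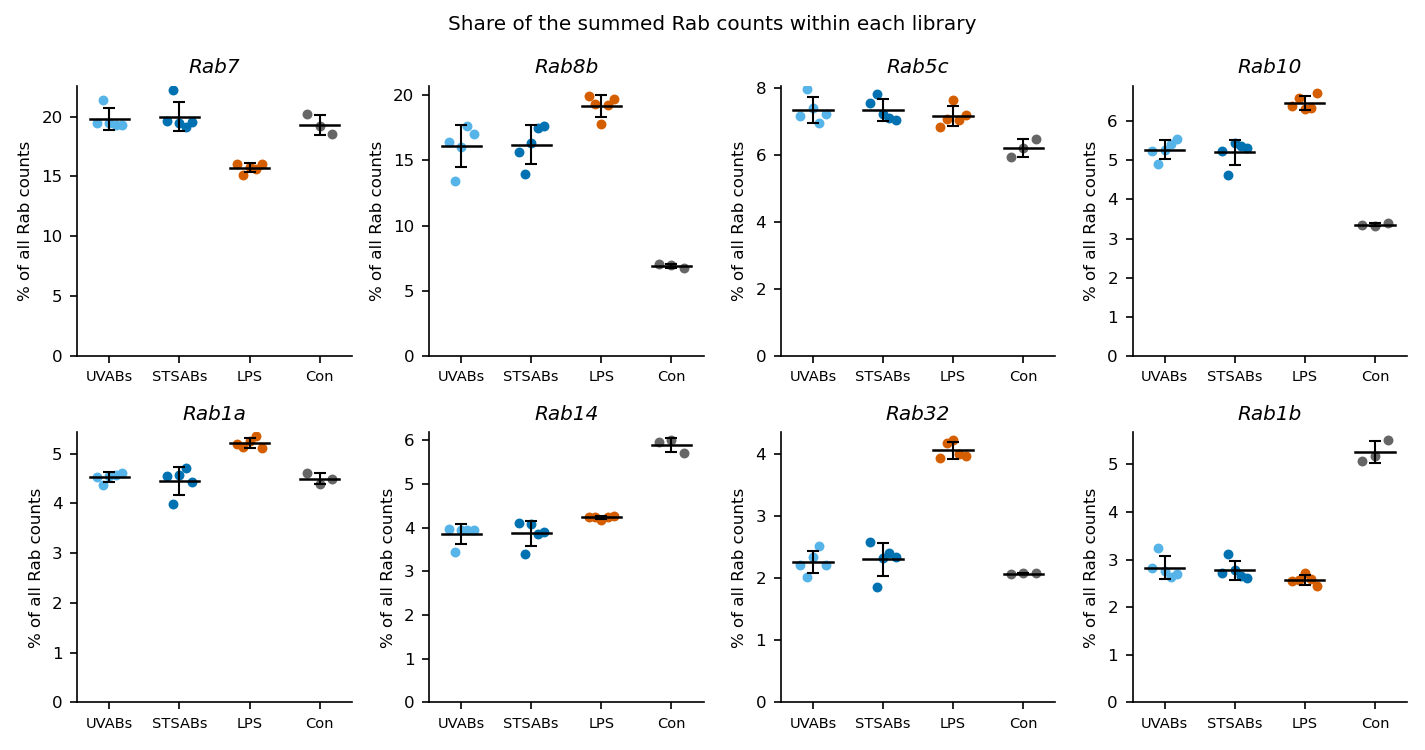
Share of all Rab counts, in percent, taken by 8 members in each library of UVABs, STSABs, LPS (n = 5 each) and Con (n = 3), with mean and SD. Rab8b takes 17.8% to 19.9% in LPS libraries and 6.77% to 7.04% in Con libraries, while Rab7 is lowest in LPS.

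Per kilobase of exon, in which levels of different genes can be set side by side, Rab7 was first in every group, at 415 ± 14.9 CPM per kb in UVABs, 420 ± 19.4 in STSABs, 343 ± 13.8 in LPS and 228 ± 11.9 in Con (SD). Rab8b was second in the first 3 groups, at 186 ± 20.5, 188 ± 20.2 and 231 ± 12.8 CPM per kb, and Rab5c came next, at 183 ± 7.61, 183 ± 5.79 and 186 ± 7.11 CPM per kb. Rab8b and Rab5c did not differ beyond their spread in UVABs and STSABs. In Con, Rab5c was second at 87.1 ± 3.29, Rab1b followed at 71.3 ± 2.87 and then Rab8b at 45.0 ± 1.25 CPM per kb. Lengths were exon unions of GENCODE M21 on GRCm38, not the annotation behind the counts.

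Several pairs of paralogs changed in their ratio between groups. As log2 ratio of counts within a library, Rab22a over Rab31 lay at 0.72 to 1.01 in UVABs, 0.67 to 0.96 in STSABs, 1.98 to 2.18 in LPS and -1.19 to -1.07 in Con. The ratio was highest in LPS, below 0 in Con and between them in both AB groups, with no overlap of LPS or Con with the others. Rab1a over Rab1b lay at 0.43 to 0.79 in UVABs, 0.36 to 0.83 in STSABs, 0.95 to 1.07 in LPS and -0.30 to -0.14 in Con. Rab8a over Rab8b lay at -2.18 to -1.65, -2.16 to -1.71, -2.63 to -2.34 and -1.02 to -0.92 in the same order. Rab7 over Rab7b lay at 7.76 to 7.99 in UVABs, 7.81 to 8.41 in STSABs, 6.62 to 7.09 in LPS and 4.51 to 4.71 in Con. For these 4 pairs the LPS libraries overlapped neither the Con libraries nor those of either AB group. Rab5a over Rab5c, in contrast, lay at -2.28 to -1.91 in UVABs, -2.36 to -1.89 in STSABs and -2.20 to -1.97 in LPS, which overlap, and at -1.78 to -1.54 in Con. Rab2a over Rab2b lay at 3 to 3.39 in UVABs, 3.1 to 3.5 in STSABs, 2.84 to 3.11 in LPS and 3.3 to 3.55 in Con, lower in every LPS library than in every Con library. Rab11a over Rab11b lay at -0.14 to -0.03 in UVABs, -0.30 to 0.05 in STSABs, -0.50 to -0.29 in LPS and -0.83 to -0.58 in Con, nearest to 0 in the AB groups. Rab6a over Rab6b lay at 5.63 to 6.41 in UVABs, 5.45 to 6.14 in STSABs, 6.57 to 7.65 in LPS and 4.05 to 4.48 in Con. The scarce Rab3a over Rab3d lay at -7.02 to -6.22, -7.15 to -6.23, -5.99 to -5.78 and -5.37 to -5.16 in UVABs, STSABs, LPS and Con. Rab32 over Rab38 overlapped among all 4 groups, at 4.86 to 5.67 in UVABs, 4.6 to 5.63 in STSABs, 5.36 to 6.09 in LPS and 5.13 to 5.61 in Con. Of 14 pairs listed, these 10 could be described, and paralogs can share reads, so these ratios depend on how the authors assigned them.

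**Figure D3:**
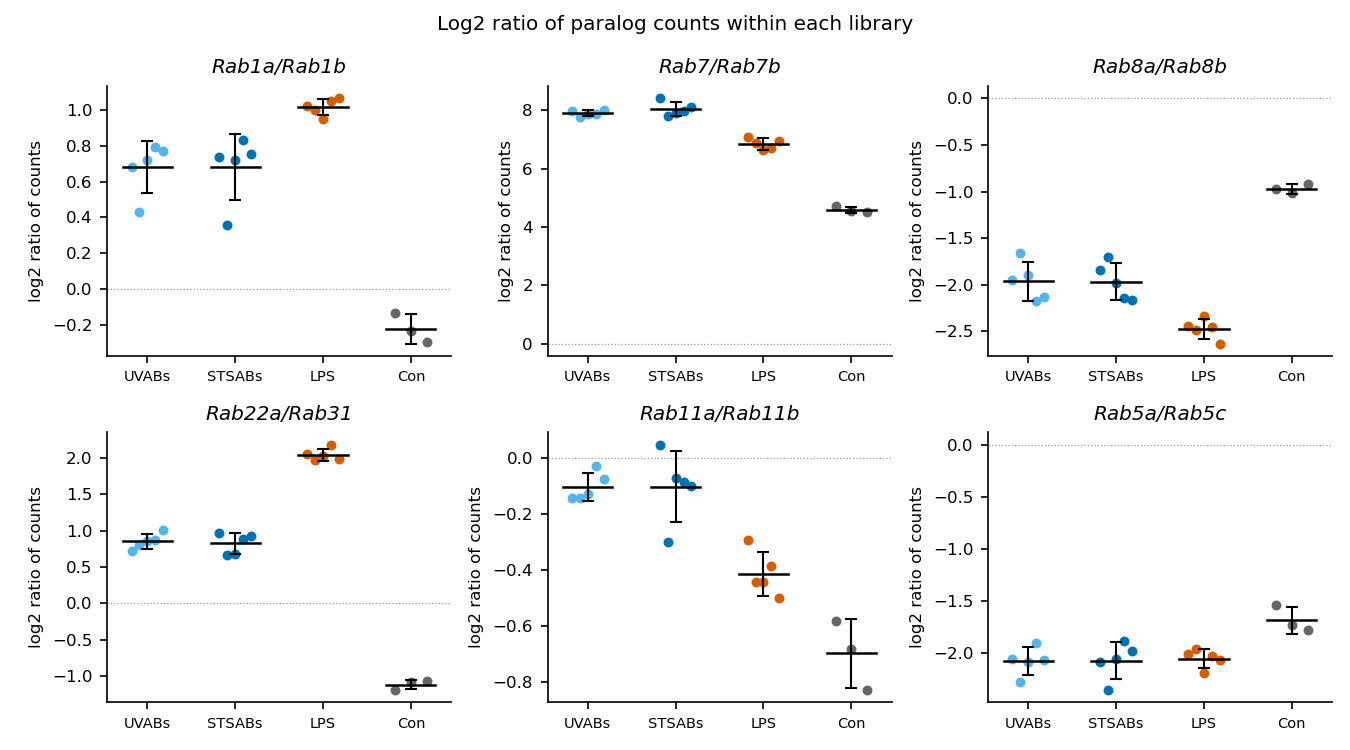
Log2 ratio of the counts of 6 paralog pairs in each library of UVABs, STSABs, LPS (n = 5 each) and Con (n = 3), with mean and SD. Rab22a over Rab31 is below 0 in Con, near 2.03 in LPS and near 0.87 in both AB groups, while Rab5a over Rab5c overlaps among the AB groups and LPS.

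Against LPS, both AB groups had higher mRNA of Rab13, Rab34, Rab44, Rab27a, Rab31 and Rab3d and, at low levels, of Rab26 and Rab37, and lower mRNA of Rab32, Rab7b, Rab33b, Rab23, Rab2b and Rab35. In UVABs against LPS, 17 of 50 members were higher and 16 lower, beside 28.6% and 28.8% of all genes. In STSABs against LPS, 18 were higher and 18 lower, beside 28.4% and 29% of all genes. The medians over the members were -0.01 in UVABs and -0.03 in STSABs, and over all genes 0.00 and -0.01. Changes of at least 2-fold were called upwards in 7 members in UVABs and 9 in STSABs (14% and 18% of the members, against 4.7% and 4.84% of all genes) and in 0 downwards (against 2.28% and 2.49%). Many of the members raised at least 2-fold were scarce. Rab26, Rab33a, Rab6b and Rab37 in both AB groups, and Rab39 in STSABs, had means of at most 2.92 CPM. The others were Rab13, Rab34 and Rab44 in both and Rab27a in STSABs. The largest fall was 1.87-fold in UVABs and 1.86-fold in STSABs. By role, 6 of 10 tested Rabs of exocytosis were higher and 2 lower in each AB group, while of 10 of late endosomes, lysosomes and lysosome-related organelles 3 were higher and 3 lower in UVABs, and 4 and 3 in STSABs. The AB comparisons share the 5 LPS libraries with each other and with the comparison of LPS with Con. Without the libraries numbered 2 of both AB groups the counts were 17 higher and 18 lower for UVABs and 20 higher and 18 lower for STSABs, and no member was called in opposite directions under the 4 scalings.

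**Figure D4:**
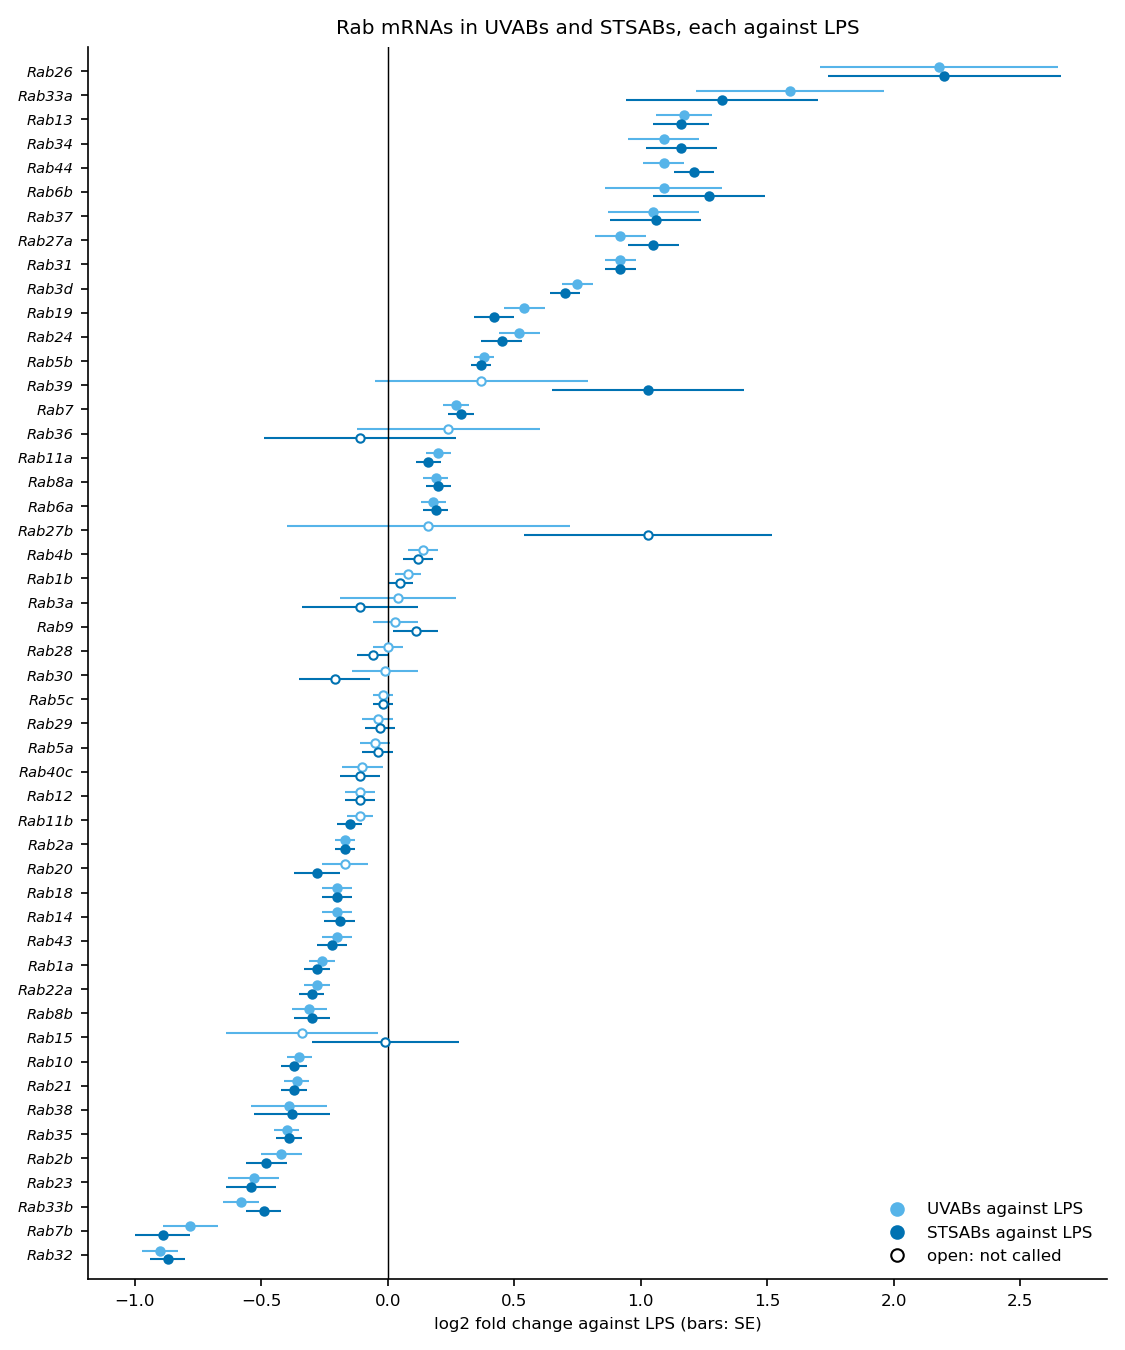
Log2 fold change of each of the 50 tested Rab mRNAs in UVABs and in STSABs against LPS (n = 5 each), with SE bars. Open points were not called. The upper end holds Rab26, Rab33a, Rab13, Rab34 and Rab44, and the lower end Rab32 and Rab7b.

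Rab27a had 29.7, 30.0, 29.8, 27.1 and 30.2 CPM in UVABs and 29.0, 40.5, 29.6, 28.9 and 33.5 CPM in STSABs. Beside the 12.2 to 17.8 CPM of LPS libraries these were higher in every library, with log2 fold changes of 0.92 ± 0.1, adjusted p = 9.14e-08 in UVABs and 1.05 ± 0.1, adjusted p = 1.07e-08 in STSABs. Rab44 had 68.1, 55.9, 66.8, 57.4 and 65.9 CPM in UVABs and 67.4, 80.1, 67.4, 59.1 and 68.8 CPM in STSABs, all above the 25.6 to 32.5 CPM of LPS. Its log2 fold changes were 1.09 ± 0.08, adjusted p = 2.14e-10 and 1.21 ± 0.08, adjusted p = 4.1e-11 in UVABs and STSABs. Rab3d rose by 0.75 ± 0.06 and 0.7 ± 0.06, and Rab37 by 1.05 ± 0.18 and 1.06 ± 0.18 (SE), the second at no more than 3.59 CPM. Rab26, of secretory granules, had 0.546, 1.74, 0.356, 0.582 and 0.764 CPM in UVABs and 0.811, 1.03, 0.659, 0.585 and 0.940 CPM in STSABs, against 0.239, 0.0606, 0.184, 0.0600 and 0.307 CPM in LPS, so its log2 fold changes of 2.18 ± 0.47 and 2.2 ± 0.46 rest on few counts. In both AB groups, 8 of 8 neutrophil markers and 3 of 3 tested mast cell and basophil markers were higher than in LPS, and their part in these results was not tested. The mast cell and basophil sums were 50.1 to 85.7 CPM in UVABs, 60.8 to 87.9 CPM in STSABs and 34.3 to 62.5 CPM in LPS, with Mcpt4 at 0 in all 3 groups.

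Rab13, a Rab of junctions and cell surface delivery, had 14.4, 18.7, 15.0, 13.5 and 15.3 CPM in UVABs and 14.4, 18.5, 15.6, 13.3 and 14.4 CPM in STSABs, against 7.12, 5.51, 8.03, 6.36 and 7.12 CPM in LPS. The log2 fold changes were 1.17 ± 0.11, adjusted p = 1.12e-08 in UVABs and 1.16 ± 0.11, adjusted p = 1.27e-08 in STSABs. Rab34, known from macropinosomes and lysosome positioning, had 7.70, 10.1, 7.48, 7.16 and 7.70 CPM in UVABs and 9.85, 9.97, 7.19, 6.90 and 8.22 CPM in STSABs, against 2.75, 3.58, 4.84, 4.26 and 3.38 CPM in LPS, with changes of 1.09 ± 0.14, adjusted p = 1.18e-06 and 1.16 ± 0.14, adjusted p = 4.54e-07. The libraries numbered 2 were the highest of their groups for both genes, and without them Rab13 changed by 1.09 ± 0.09 and 1.08 ± 0.09, and Rab34 by 1 ± 0.13 and 1.10 ± 0.13 (SE). Rab31 had 42.5, 37.8, 42.4, 40.4 and 36.2 CPM in UVABs and 36.3, 42.8, 42.7, 40.4 and 38.1 CPM in STSABs, between LPS and Con in every library. It rose against LPS by 0.92 ± 0.06, adjusted p = 8.73e-11 in UVABs and 0.92 ± 0.06, adjusted p = 8.17e-11 in STSABs. Rab7 rose less, to 1082 ± 39.0 CPM in UVABs and 1095 ± 50.6 CPM in STSABs, against 895 ± 36.0 CPM in LPS (SD). Its changes of 0.27 ± 0.05 and 0.29 ± 0.05 (SE) were 0.25 and 0.26 without the libraries numbered 2, in which it was highest. Rab11a and Rab8a also rose, by 0.2 ± 0.05 and 0.19 ± 0.05 in UVABs and 0.16 ± 0.05 and 0.2 ± 0.05 in STSABs (SE). In STSABs Rab11a overlapped with LPS, and its call was lost with replicates 1 to 3 only (0.17).

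Rab32 had 121, 108, 128, 139 and 122 CPM in UVABs and 142, 99.0, 127, 133 and 129.6 CPM in STSABs, below the 224 to 239 CPM of LPS libraries. It fell by 0.9 ± 0.07, adjusted p = 1.17e-09 in UVABs and by 0.87 ± 0.07, adjusted p = 1.85e-09 in STSABs. Rab7b had 4.18, 5.33, 4.51, 4.60 and 4.17 CPM in UVABs and 3.19, 5.29, 4.43, 4.27 and 3.94 CPM in STSABs, against 6.94, 7.27, 9.07, 8.46 and 7.43 CPM in LPS. The log2 fold changes were -0.78 ± 0.11, adjusted p = 2.98e-06 and -0.89 ± 0.11, adjusted p = 5.59e-07, so that it was lower than in LPS in all 10 AB libraries. Rab33b, which binds the autophagy protein ATG16L1, fell by 0.58 ± 0.07 and 0.49 ± 0.07, and Rab35, of fast recycling, by 0.4 ± 0.05 and 0.39 ± 0.05 (SE). Rab23, of hedgehog signalling, fell by 0.53 ± 0.1 and 0.54 ± 0.1, and Rab2b, of the Golgi, by 0.42 ± 0.08 and 0.48 ± 0.08 (SE).

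Of the members named for a rise in LPS against Con, Rab8b, Rab10, Rab1a, Rab14, Rab21, Rab22a, Rab32 and Rab38 were lower in both AB groups than in LPS. Rab8b had 893, 723, 874, 974 and 940.5 CPM in UVABs and 859.6, 744, 891, 971 and 978 CPM in STSABs, below all LPS libraries, with changes of -0.31 ± 0.07, adjusted p = 0.00121 and -0.3 ± 0.07, adjusted p = 0.00174. Its lowest values were in the libraries numbered 2, without which the changes were -0.25 and -0.24. Rab10 fell by 0.35 ± 0.05 and 0.37 ± 0.05, Rab1a by 0.26 ± 0.05 and 0.28 ± 0.05, and Rab14 by 0.2 ± 0.06 and 0.19 ± 0.06 (SE). Rab21 fell by 0.36 ± 0.05 and 0.37 ± 0.05 and Rab22a by 0.28 ± 0.05 and 0.3 ± 0.05 (SE), without overlap with LPS. Rab20 had 35.1, 51.9, 34.3, 35.0 and 38.0 CPM in UVABs and 40.1, 37.3, 34.4, 35.3 and 33.7 CPM in STSABs and overlapped with LPS. It fell by 0.28 ± 0.09, adjusted p = 0.0166 in STSABs, a call lost without LPS replicate 3 (-0.23), and was at -0.17 ± 0.09, adjusted p = 0.127 in UVABs, or -0.30 and called without UVABs replicate 2. Rab38 passed the test in both, at -0.39 ± 0.15, adjusted p = 0.0287 and -0.38 ± 0.15, adjusted p = 0.0346, but overlapped with LPS. Its call in UVABs was lost without LPS replicate 1 (-0.37), LPS replicate 3 (-0.28), UVABs replicate 3 (-0.35) or UVABs replicate 4 (-0.32). In STSABs it was lost without LPS replicate 1 (-0.35), LPS replicate 3 (-0.27), LPS replicate 5 (-0.38), STSABs replicate 3 (-0.36), STSABs replicate 4 (-0.30) or STSABs replicate 5 (-0.35). Rab39, at most 0.585 CPM, was called higher in STSABs (1.03) but not without LPS replicate 4 (0.92), LPS replicate 5 (0.92), STSABs replicate 3 (0.87) or STSABs replicate 4 (0.82). Rab5a, Rab5c, Rab12, Rab29 and Rab30 did not pass the test in either AB group. For Rab29 the log2 differences from LPS were -0.04 ± 0.06 and -0.03 ± 0.06 (SE), and for Rab5c -0.02 ± 0.04 and -0.02 ± 0.04.

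**Figure D5:**
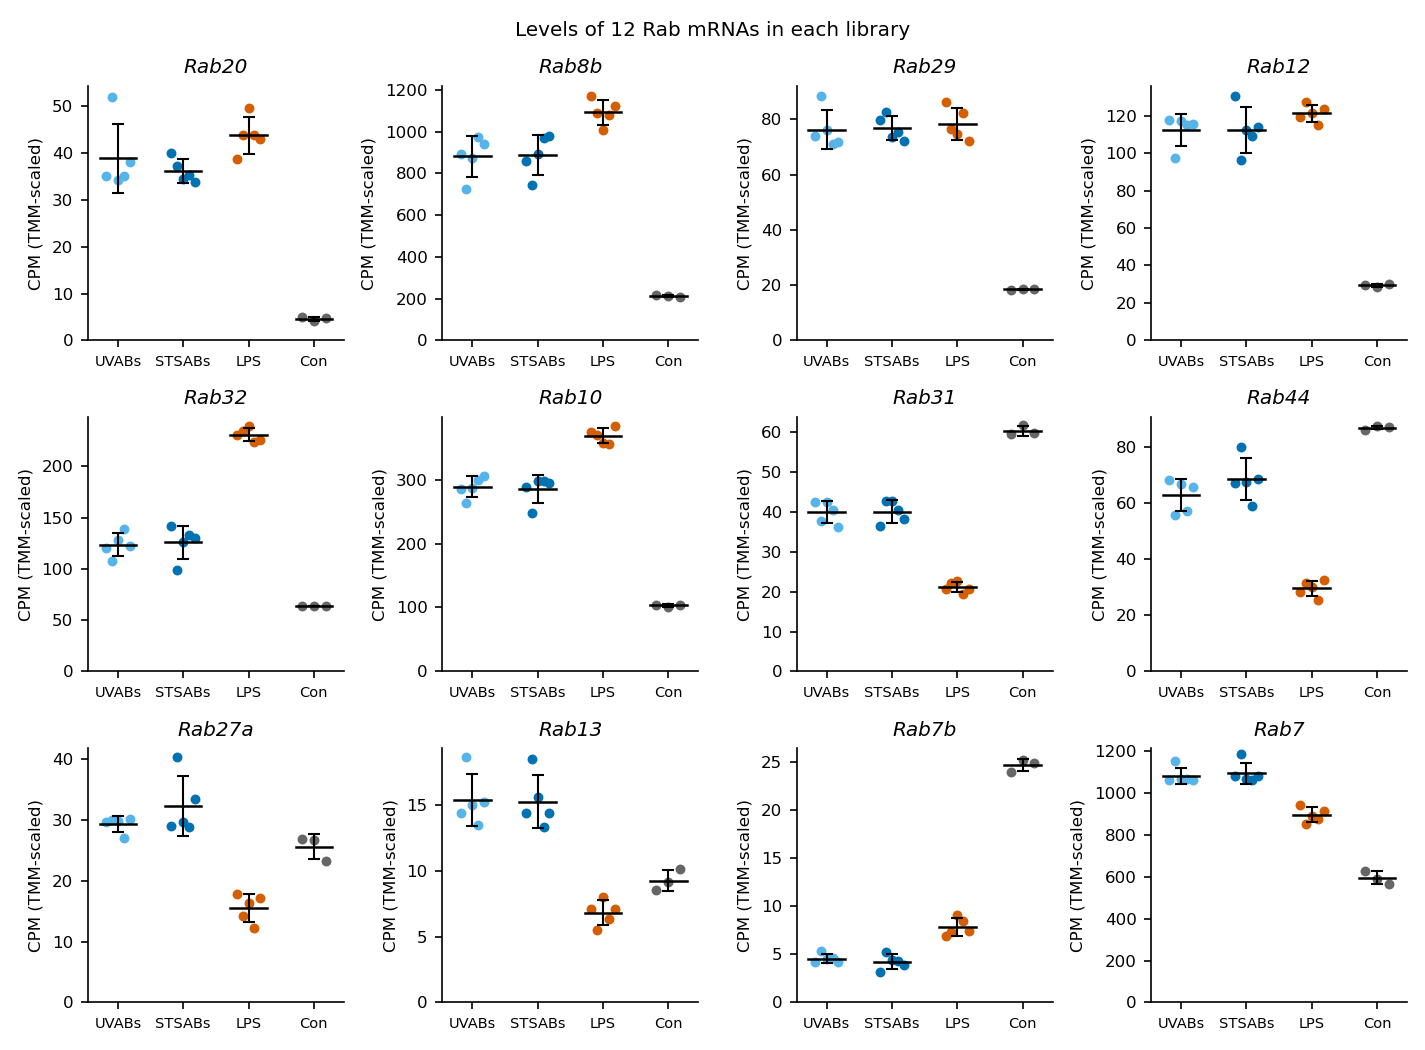
CPM of 12 Rab mRNAs in each library of UVABs, STSABs, LPS (n = 5 each) and Con (n = 3), with mean and SD, on axes that start at 0. Rab32 is highest in LPS and Rab7b lowest in the AB groups, while Rab31, Rab44 and Rab27a are lowest in LPS.

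Between the AB groups no member was called. In UVABs against STSABs, 0 of 50 members were higher and 0 lower, beside 0% of all genes in each direction, by edgeR, DESeq2 and limma-voom. At an unadjusted p under 0.05 edgeR gave 0 members and 198 of all genes. The log2 differences ran from -0.88 to 0.35 over the members, with a median absolute value of 0.02 over the members and 0.04 over all genes. The outermost, Rab27b and Rab36, were below 1 CPM. For Rab44 the difference was -0.13 ± 0.07, for Rab27a -0.14 ± 0.09 and for Rab32 -0.03 ± 0.07 (SE). With the replicate number as a block and both AB groups alone, 0 members were called and 2 had an unadjusted p under 0.05, with 457 of 11732 genes.

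Against Con, UVABs had 32 members higher and 13 lower, beside 40.2% and 42.4% of all genes, and STSABs had 33 higher and 11 lower, beside 40% and 42.6%. With library totals alone these were 17 and 26 in UVABs and 16 and 27 in STSABs. Of all 12465 genes, 2504 were then higher and 8523 lower in UVABs, and 2510 and 8511 in STSABs. In both, the median was then -0.19 over the members and -0.74 over all genes. Over the 4 scalings, 8 and 10 members were called in both directions. In UVABs and STSABs alike these included Rab2a, Rab4b, Rab6a, Rab11b, Rab14, Rab18, Rab33b and Rab43, and in STSABs also Rab5b and Rab27a. Under TMM scaling the median was 0.51 over the members in both and -0.04 over all genes. The largest changes by the same rule were in Rab30 (4.1 ± 0.24 in UVABs and 3.9 ± 0.24 in STSABs), Rab20 (3.06 ± 0.14 and 2.96 ± 0.14) and Rab8b (2.05 ± 0.09 and 2.06 ± 0.09) upwards. Downwards they were in Rab7b (-2.44 ± 0.1 and -2.55 ± 0.11), Rab37 (-1.72 ± 0.14 and -1.71 ± 0.14) and Rab23 (-0.65 ± 0.1 and -0.66 ± 0.1), all as log2 fold change with SE. These 6 kept their direction under each of the 4 scalings.

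The regulators and effectors were taken from lists of named genes, chosen with earlier results of these data known. Of 43 tested GEFs, 24 were higher and 15 lower in LPS against Con (median 0.32), and of 38 GAPs, 13 were higher and 22 lower (median -0.28). These are 55.8% and 34.9% of the GEFs and 34.2% and 57.9% of the GAPs, beside 40% and 43% of all genes. With library totals alone they were 13 and 26 for GEFs (30.2% and 60.5%, median -0.43) and 6 and 30 for GAPs (15.8% and 78.9%, median -1.02). Of all 12465 genes, 2365 were then higher and 8802 lower (median -0.78). The direction of the GEFs thus depended on the scaling. Under TMM scaling, the median of the GEFs was above that of all genes (-0.03) and that of the GAPs below it. A change of scaling shifts all genes of a comparison nearly alike, so the medians under library totals alone are not a second check of this. Rab3il1, a GEF for Rab3 and Rab8 proteins, averaged 7.40 ± 0.759 CPM in LPS and 121 ± 9.72 CPM in Con (SD), a log2 fold change of -4.04 ± 0.09 (SE, adjusted p = 1.11e-20). Dennd3, the GEF of Rab12, averaged 248 ± 16.9 CPM in LPS and 39.3 ± 2.9 CPM in Con (2.66 ± 0.07). Rin2, a GEF of Rab5, averaged 355 ± 8.77 and 76.0 ± 2.56 CPM in LPS and Con (2.22 ± 0.06). Among GAPs, Tbc1d1, which acts on Rab8a, Rab10 and Rab14, rose by 3.38 ± 0.08, Tbc1d13, a GAP of Rab35, by 2.81 ± 0.06 and Tbc1d8 by 2.55 ± 0.06 (SE). Gdi2, a GDI, averaged 265 ± 10.8 CPM in LPS and 910 ± 23.9 CPM in Con, a change of -1.78 ± 0.05 (adjusted p = 5.21e-19). Of the 2 Rab escort proteins, which present Rabs for prenylation, Chml fell by 1.93 ± 0.14 and Chm rose by 1.06 ± 0.11 (SE). In all, 2 of 9 genes for GDIs and prenylation were higher and 5 lower, or 1 and 8 with library totals alone.

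Of 51 tested effectors, 17 were higher (33.3%) and 24 lower (47.1%) in LPS against Con, near the 40% and 43% of all genes (median -0.11). With library totals alone 8 were higher (15.7%) and 41 lower (80.4%), beside 2365 and 8802 of all 12465 genes. The median was then -0.85, and -0.78 over all genes. Mical1, an actin-oxidising effector of Rab8 and related Rabs, averaged 13.1 ± 1.35 CPM in LPS and 123 ± 4.33 CPM in Con (SD), a log2 fold change of -3.23 ± 0.06 (SE, adjusted p = 8.95e-22). Rab11fip1, which links Rab11 to motors, rose by 1.96 ± 0.06 and Inpp5b, a phosphatase that binds Rabs, by 1.83 ± 0.06 (SE). The kinase Lrrk2, which phosphorylates Rab8, Rab10, Rab12 and Rab29, averaged 77.9 ± 6.26 CPM in LPS and 33.4 ± 3.44 CPM in Con (1.22 ± 0.10, adjusted p = 2.55e-10). Lrrk1, which phosphorylates Rab7, and Ppm1h, the phosphatase that reverses Lrrk2, rose by 0.71 ± 0.06 and 0.72 ± 0.06, or -0.03 and -0.02 with library totals alone.

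In UVABs against LPS, beside 28.6% of all genes higher and 28.8% lower, 14 of 43 GEFs were higher (32.6%) and 13 lower (30.2%), and 12 of 38 GAPs were higher (31.6%) and 11 lower (28.9%). Of 51 effectors, 18 were higher (35.3%) and 10 lower (19.6%), and of 9 genes for GDIs and prenylation 4 were higher and 2 lower. In STSABs, beside 28.4% and 29% of all genes, 14 of 43 GEFs were higher (32.6%) and 10 lower (23.3%). Of 38 GAPs, 14 were higher (36.8%) and 9 lower (23.7%). Of 51 effectors, 20 were higher (39.2%) and 10 lower (19.6%), and of 9 genes for GDIs and prenylation 3 were higher and 2 lower. The shares of GEFs and GAPs in UVABs were near those of all genes. The other shares were larger upwards and smaller downwards than those of all genes, and whether they differ was not tested. Unc13d, the granule-priming partner of Rab27a, averaged 51.1 ± 6.37 CPM in UVABs, 52.0 ± 6.81 CPM in STSABs and 23.0 ± 0.69 CPM in LPS (SD). Its changes were 1.15 ± 0.09 in UVABs and 1.18 ± 0.09 in STSABs (SE, adjusted p = 6.95e-10 and 4.92e-10), beside the same higher neutrophil markers. Vps33a, a subunit of the tethering complexes that work with Rab5 and Rab7, fell by 0.66 ± 0.06 and 0.70 ± 0.06, and Mon1b, of the GEF of Rab7, by 0.60 ± 0.06 and 0.54 ± 0.06. Dennd2a, a GEF of Rab9, rose by 0.86 ± 0.05 and 0.88 ± 0.05, and Dennd1c, a GEF of Rab35, by 0.90 ± 0.06 and 0.88 ± 0.06. Among GAPs, Evi5l rose by 1.08 ± 0.10 and 1.15 ± 0.10, Tbc1d10b by 0.74 ± 0.06 and 0.71 ± 0.06 and Tbc1d8 by 0.49 ± 0.05 and 0.50 ± 0.05. Gdi2 rose by 0.36 ± 0.04 and 0.37 ± 0.04, and Praf2 by 0.70 ± 0.10 and 0.71 ± 0.10. Mical1 rose by 0.79 ± 0.06 and 0.83 ± 0.06, and Lrrk1 by 0.22 ± 0.05 and 0.27 ± 0.05, while Lrrk2 (-0.05 ± 0.09 and -0.02 ± 0.09) and Ppm1h (0.10 ± 0.05 and 0.04 ± 0.05) did not pass the test. All pairs are UVABs and STSABs, each against LPS, with SE. Between the AB groups, edgeR called 0 of these regulators.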

How the data were processed

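The deposited table holds estimated counts per gene for 18 libraries. Per the labels' protocols, poly(A) RNA was extracted with Trizol, made into dUTP libraries and sequenced as read pairs. The aligner HISAT2 and the mouse build mm39 come from the submitters' processing notes. Not given in the sources used here were versions, the counting tool, its strand setting and the annotation. Of the deposited estimated counts, 6.35% were not whole (beyond a tolerance of 1e-06), including values of Rab2a, Rab5b and Rab33b, and all were rounded.

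Counts were tested with edgeR 4.0.16 (R 4.3.3), with TMM scaling, its filter on low counts by group and a quasi-likelihood F-test on group means over all 18 libraries, with Benjamini-Hochberg adjustment at 0.05. The script was also tested on simulated data. The SE of a log2 fold change was its size over the root of the F statistic. limma 3.58.1 (voom) and DESeq2 1.42.0 were alternatives, beside other scalings, filters and left-out libraries. Named members were the 6 with the largest called change in each direction per main comparison, and 3 against Con for the AB groups, among those with at least 5 CPM in one group, plus a panel of well-known Rabs. Other members, such as low or exceptional ones, were named after their values were seen. Regulators were named by the 3 smallest adjusted p-values per list and comparison, not by the size of change, of which a gene is not reported here. The members and lists were chosen with earlier results of these data known.

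Replicate numbers were taken from the labels. Between UVABs and STSABs, deviations of same-numbered libraries correlated at 0.143, 0.687, 0.231, 0.467 and 0.239. Some differently numbered libraries reached 0.31 (STSABs 5 and UVABs 4) and 0.246 (STSABs 4 and UVABs 5). Whether the numbers pair all libraries of these groups is therefore not settled. No library was a copy of another. UVABs libraries 4 and 5 carry a shorter spelling of the group name. Protein sequences were not used here.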

Additional observations from a re-analysis of the deposited data

Results flagged for a closer look

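In 11 of the 81 groups examined (27 genes), 1 library lay far from the others of its group by Dixon's test at 95%, which by chance marks about 5% of groups. All but 1 of these were libraries numbered 2 of the AB groups. Among UVABs, replicate 2 was high for Rab7 (1152 CPM, others 1063 to 1066), Rab20 (51.9 CPM, others 34.3 to 38.0), Rab24 (36.2 CPM), Rab29 (88.6 CPM) and Rab34 (10.1 CPM), and low for Rab12 (97.4 CPM) and Rab14 (185 CPM). Among STSABs, replicate 2 was high for Rab7 (1184 CPM, others 1062 to 1083) and low for Rab10 (247 CPM) and Rab14 (181 CPM). UVABs replicate 4 was low for Rab27a (27.1 CPM). Without both libraries numbered 2, the changes of UVABs against LPS were 0.25 for Rab7, -0.30 for Rab20, -0.15 for Rab14 and -0.32 for Rab10, and those of STSABs against LPS were 0.26, -0.29, -0.13 and -0.32.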

How the results depend on the processing

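Direction against Con depended on the scaling. With library totals alone, the members higher and lower were 15 and 29 in LPS, 17 and 26 in UVABs and 16 and 27 in STSABs. Of the calls over all genes, 21.2%, 22.7% and 22.8% were then upwards. Under the stricter filter on low counts (5 CPM), which tests fewer genes, the members lower were 10 in LPS, 7 in UVABs and 7 in STSABs against Con. Scarce members left the test, among them Rab3a, Rab6b, Rab15, Rab27b, Rab36 and Rab39, all lower in LPS under the main filter. These counts therefore cannot be set beside those of the main filter as a change of calls. For LPS against Con, library totals alone turned Rab2a (-0.19), Rab4b (-0.35), Rab5a (-0.02), Rab5b (-0.53), Rab6a (-0.44), Rab7 (-0.15), Rab11b (-0.27), Rab14 (-0.33), Rab18 (-0.06), Rab28 (-0.08), Rab43 (-0.25), Lrrk1 (-0.03) and Ppm1h (-0.02), and upper-quartile scaling turned Rab5b (-0.06). In STSABs against LPS, which was not called for either gene, Lrrk2 turned with library totals alone (0.03) and without both libraries numbered 2 (0.02), and Rab5a likewise (0.01 and 0.02). The cause was not tested.

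Leaving out 1 library at a time gave 28 members higher and 15 to 16 lower in LPS against Con, 17 to 18 and 15 to 18 in UVABs against LPS, 17 to 20 and 16 to 19 in STSABs against LPS, 32 to 33 and 13 in UVABs against Con, and 33 and 11 in STSABs against Con. Over all genes, it gave 4823 to 5031 higher and 5194 to 5431 lower in LPS against Con. For UVABs against LPS these were 3381 to 3652 and 3399 to 3701, and for STSABs against LPS 3316 to 3669 and 3415 to 3724. Against Con they were 4868 to 5043 and 5150 to 5353 in UVABs, and 4836 to 5038 and 5172 to 5384 in STSABs. With the replicate block the members higher and lower were, in the same order of comparisons, 28 and 15, 18 and 17, 18 and 18, 33 and 13, and 33 and 11. Outside the AB pair, same-numbered libraries correlated at -0.141 to 0.207, most of them under 0.1. The block is therefore only a check, and between UVABs and STSABs it changed no call. With replicates 1 to 3 only, 10 calls were lost. These were Rab1b in LPS against Con and Rab2a and Rab38 in both AB groups against LPS. The rest were Rab11a, Rab11b, Rab14, Rab20 and Rab39 in STSABs against LPS. Members under 1 CPM rest on few counts. The counts of regulators under other scalings and the block on the AB groups alone were chosen after seeing the data.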
